A study of Rattus norvegicus with 49 samples.

Results

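A set of 8 genes of hepatic thyroid hormone action was followed in rats given furan: the deiodinases Dio1 and Dio3, the nuclear receptors Thra and Thrb, the hormone-responsive genes Thrsp, Me1 and Klf9, and the plasma carrier Ttr. They were chosen by name, and every transcript probe whose RefSeq accession maps to these symbols was used, which gave 9 probes for 8 of the 15154 genes with a named probe. Me1 had 2 probes and the other genes had 1, and the brighter probe stands for Me1 unless the dimmer one is named. A total of 8 probes for 7 genes passed the filter on dim probes among 17661 that did. The Thrb probe did not, since the liver signal was well above background on 2 of 48 arrays (0 of 23 from males, 2 of 25 from females).

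The liver takes up thyroxine (T4) through membrane transporters and removes iodine from it. Dio1 makes the active hormone T3 by outer-ring deiodination and also clears reverse T3, whereas Dio3 inactivates T4 and T3 by inner-ring deiodination and is best known from placenta and fetal tissues. T3 acts through the receptors encoded by Thra and Thrb, of which the latter is the main form in liver, bound to DNA with a retinoid X receptor, and genes of lipid synthesis such as Thrsp and Me1 are well-known hepatic targets.

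The samples were livers of F344 rats, aged 7 to 8 weeks when dosing began, that received furan in corn oil by gavage on 5 days per week over 90 days. Males and females were given 2, 0.5, 0.12 or 0.03 mg/kg body weight of furan per dosing day or, as controls, corn oil alone, and each of the 10 groups held 5 animals except males at 0.03 mg/kg, with 4. Each array carried the Cy5-labelled liver RNA of 1 animal against a Cy3-labelled universal rat reference, always in this orientation, so each value is a log2 ratio of liver to reference and no level is set against that of another probe. One array of males at 0.03 mg/kg was dim in both channels and was left out, which left 48 arrays on 8 slides.

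On these 48 arrays 37.9 to 71.2% of the transcript spots were well above background in the liver channel, and the slides differed. Slides 5 and 6 had the lowest medians, 43.2 and 45%, and held 10 treated arrays and 0 control arrays. The tests therefore carried a term for slide, and "slide-adjusted" below marks values from which the fitted slide effect was removed. Hepatocyte markers were present as the tissue label requires, with Alb, Apoa1, Apob, Tf, Serpina1, Fgb and Tat above background on 48 of 48 arrays and Hnf4a on 47. In whole liver, fewer cells of a type and less RNA per cell cannot be told apart. A gene was called where the limma adjusted p was at most 0.05 and the change at least 1.5-fold (trends and tests over all doses, adjusted p alone).

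The start-site regions of the inactivating deiodinase Dio3 and of Klf9 and Thrsp, the target genes whose male trends were called, are shown so that they can be compared for promoter type. Each is the 250 bases before the RefSeq start site in GRCr8, written 5′ to 3′ along the gene, with chr6:135106822-135107071 on the plus strand for Dio3, chr1:230126396-230126645 on the plus strand for Klf9 and chr1:161138965-161139214 on the minus strand for Thrsp. Capitals mark matches on either strand to the GC box (GGGCGG), the box named by its letters CCAAT, and the TATA box (searched as TATAAA).
Dio3: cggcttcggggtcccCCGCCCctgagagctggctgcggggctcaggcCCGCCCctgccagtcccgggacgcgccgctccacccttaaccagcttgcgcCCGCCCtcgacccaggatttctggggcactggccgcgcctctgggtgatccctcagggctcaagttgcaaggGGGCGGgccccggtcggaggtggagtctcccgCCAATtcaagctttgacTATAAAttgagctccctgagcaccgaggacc
Klf9: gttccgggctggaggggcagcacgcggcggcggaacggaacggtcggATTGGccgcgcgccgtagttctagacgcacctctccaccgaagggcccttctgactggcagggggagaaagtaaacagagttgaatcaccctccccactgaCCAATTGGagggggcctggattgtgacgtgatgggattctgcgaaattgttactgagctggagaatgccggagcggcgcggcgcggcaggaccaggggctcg
Thrsp: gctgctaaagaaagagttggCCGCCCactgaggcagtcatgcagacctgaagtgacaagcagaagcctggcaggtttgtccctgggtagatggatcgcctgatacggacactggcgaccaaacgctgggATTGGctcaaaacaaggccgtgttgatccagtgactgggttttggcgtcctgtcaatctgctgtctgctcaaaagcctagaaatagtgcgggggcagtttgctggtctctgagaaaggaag
Dio3 held 4 GC boxes, 1 CCAAT box and a TATA box that starts 31 bases before the start site, and its window was 68.8% G and C. Klf9 held 3 CCAAT matches, of which a pair overlap on opposite strands, and Thrsp held 1 GC box and 1 CCAAT box. Over 33469 rat promoters of the same length, 30.5% held a GC box, 34% a CCAAT box and 12.9% a TATA box, and among the 8 genes the counts were 4, 3 and 1. AGGTCA, the core element that thyroid hormone receptors bind, was found in 14.1% of all windows and in 0 of these 8, and the clock E-box CACGTG in 5.59% and 0 of 8. These matches describe letters in the window only.

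Dio3 was higher in males at 2 mg/kg. The log2 ratios as measured were 0.56, -0.07, 0.59, 0.50 and 0.17 in control males, and 0.26, 0.30, 1.32, 1.23 and 1.04 in males at 2 mg/kg. The treated males with values over 1 lay above every control, and the other 2 lay among the controls. After slide adjustment the control males lay between -0.02 and 0.34 and the treated males between 0.58 and 1.16, so that the groups no longer overlapped, as for 16.7% of all probes in this comparison. The fitted change was +0.68 ± 0.14 (SE, n = 5 and 5 rats) on the log2 scale, 1.61-fold, with an adjusted p of 0.0003934. On each of the 3 slides that held both a control male and a male at 2 mg/kg the treated male was higher, by 0.68, 0.82 and 0.87.

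It was the only 1 of the 7 tested genes called in males at 2 mg/kg, where 5.07% of all probes were called. At 0.5 mg/kg the difference was +0.47 ± 0.14 (adjusted p = 0.1332), and all 5 males lay above all controls after slide adjustment, as for 5.03% of probes. As measured only 2 of these 5 males did. The lower doses gave +0.02 ± 0.14 at 0.12 mg/kg and +0.10 ± 0.16 at 0.03 mg/kg. Over the dose order Dio3 rose by 0.17 ± 0.03 per step in males (adjusted p = 0.0001187). The Dio3 probe was dim, with the liver signal well above background on 38 of 48 arrays. In males it was so on 4 of 5 arrays of the controls and of the 2 mg/kg group, and on 3 of 5 at 0.5 mg/kg. Without the slide term the change was +0.48 with an adjusted p of 0.1801, and without the treated male numbered 84 it was +0.58, under the 1.5-fold limit, with an adjusted p of 0.004049. Of 12 other ways of processing, 7 kept the call, and it was also lost under median centring (+0.47, under 1.5-fold), with the liver channel alone (+0.39, under 1.5-fold) and in the authors' series table (+0.61, adjusted p = 0.1105).

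**Figure D1:**
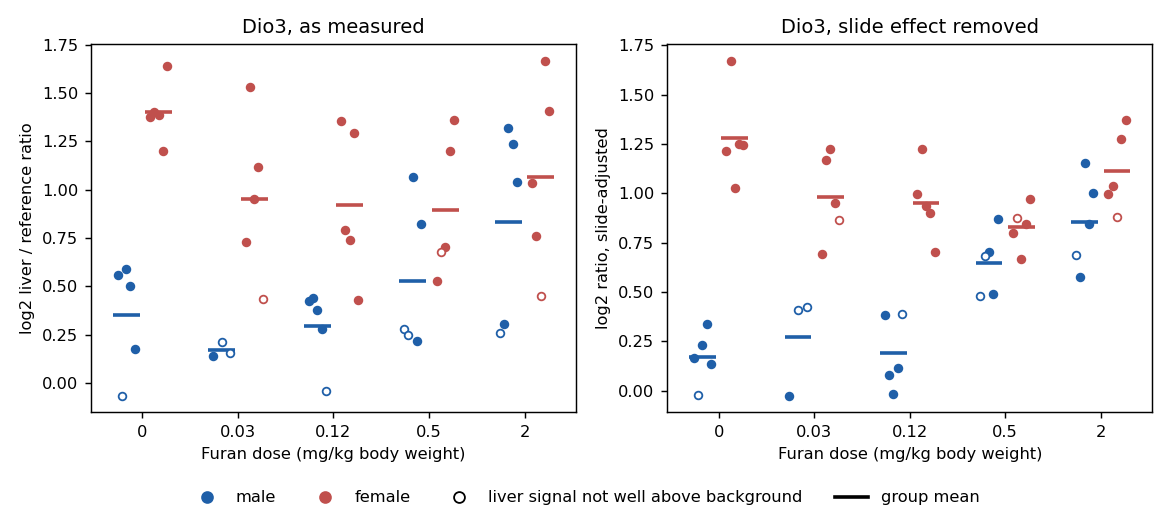
Log2 ratio of liver to reference for Dio3 in each rat against furan dose (mg/kg body weight, equally spaced), as measured on the left and with the slide effect removed on the right. Points are rats (blue males, red females, open where the liver signal was not well above background) and bars are group means; after slide adjustment the 5 males at 2 mg/kg (0.58 to 1.16) lie above the 5 control males (-0.02 to 0.34), and the control females (1.03 to 1.67) lie above all control males.

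In females Dio3 did not follow this course. Measured ratios were 1.38, 1.40, 1.39, 1.20 and 1.64 in control females and 1.03, 0.76, 0.45, 1.67 and 1.41 in females at 2 mg/kg. The treated values surrounded the control values, with 3 below the lowest control and 1 above the highest. The change was -0.17 ± 0.14 (95% interval -0.46 to 0.12, adjusted p = 0.4911), and at 0.5 mg/kg it was -0.45 ± 0.14 with an adjusted p of 0.1133, all 5 females lying below all controls after slide adjustment, as for 6.96% of probes. As measured only 3 of the 5 females at 0.5 mg/kg did. The furan effect at 2 mg/kg differed between the sexes by 0.85 ± 0.19 (male minus female, adjusted p = 0.02145), which made Dio3 the 1 of 7 genes called where 1.09% of probes were. When female 83 at 2 mg/kg, control male 3 or male 87 at 2 mg/kg was left out the difference was 0.82, 0.78 and 0.79 and the adjusted p rose to 0.05168, 0.05994 and 0.06759. Without the slide term they were 0.82 and 0.7527, and with the liver channel alone 0.34 and 0.2533.

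Dio1, the activating enzyme, gave no call at any dose in either sex. Slide-adjusted ratios ran from 4.74 to 5.06 in control males and from 4.18 to 4.81 in males at 2 mg/kg, overlapping at their edges. The change was -0.27 ± 0.19 in males (95% interval -0.66 to 0.11, adjusted p = 0.3089) and -0.30 ± 0.20 in females (95% interval -0.70 to 0.09, adjusted p = 0.3516). A 1.5-fold fall lies inside both intervals.

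Thra, the receptor gene that could be measured, was likewise not called. Its slide-adjusted ratios were -0.63 to -0.39 in control males and -0.95 to -0.32 in males at 2 mg/kg, and the control range lay within the treated range. Males differed from control by -0.15 ± 0.11 (adjusted p = 0.3607) and females by +0.23 ± 0.12 (adjusted p = 0.2277), the 5 females at 2 mg/kg lying above all 5 controls after slide adjustment, as for 10.5% of probes. As measured only 1 of these 5 females did. The difference in effect between the sexes was -0.37 ± 0.15 (adjusted p = 0.1761). Of the arrays, 41 of 48 had the Thra signal above background.

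Klf9, a Krüppel-like transcription factor gene that T3 and also glucocorticoids induce, was called in males at 0.12 mg/kg, and its fitted differences from control were positive at each dose in both sexes. The measured log2 ratios were 0.52, 1.03, 1.09, 0.24 and 0.66 in control males and 1.58, 1.76, 1.71, 1.61 and 1.51 at 0.12 mg/kg. Every male at 0.12 mg/kg lay above every control male as measured, which held for 0.459% of all probes. The same was so after slide adjustment, for which no share over all probes is given. In males at 0.5 mg/kg that share was 1.02% as measured and 5.03% after slide adjustment. The change was +0.96 ± 0.16 (1.95-fold, n = 5 and 5, adjusted p = 0.0009563), called where 0.306% of probes were, and no other member was called at this dose. On the 4 slides with both groups the treated male was higher by 0.66, 1.19, 1.36 and 0.92.

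The neighbouring doses gave smaller values. In males Klf9 differed from control by +0.58 ± 0.19 at 0.03 mg/kg (adjusted p = 0.9997, 3 arrays), +0.61 ± 0.16 at 0.5 mg/kg (adjusted p = 0.07144) and +0.55 ± 0.16 at 2 mg/kg (1.47-fold, adjusted p = 0.009836). Measured ratios at 0.5 mg/kg were 1.14, 1.34, 1.34, 1.48 and 1.38, all above the highest control, as for 1.02% of probes, and at 2 mg/kg they were 1.44, 1.12, 1.17, 1.43 and 1.03, of which 4 were. The 4 furan groups thus did not stand in dose order, although the trend was called (0.11 ± 0.04 per step, adjusted p = 0.02025). The trend's adjusted p was 0.0571, 0.07121 and 0.05113 without male 86 at 2 mg/kg, control male 5 or male 27 at 0.03 mg/kg.

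Female Klf9 differences from control were +0.40, +0.49, +0.45 and +0.48 from the lowest to the highest dose, each with an SE of 0.16 and with adjusted p values of 0.7142, 0.3846, 0.1677 and 0.06891. Control females ran from 0.52 to 1.36 as measured and females at 2 mg/kg from 1.12 to 1.76, and the ranges overlapped. At 2 mg/kg the difference in effect between the sexes was 0.07 ± 0.22 (95% interval -0.38 to 0.51, adjusted p = 0.8963).

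Other glucocorticoid-responsive genes also moved, in both directions in males at 0.12 and 2 mg/kg. In males at 0.12 mg/kg 3 of 8 genes of that list were called, where 0.306% of all probes were. Zbtb16 at +2.14 and Fkbp5, a co-chaperone of the glucocorticoid receptor, at +1.29 were higher, and Sgk1 at -1.61 was lower. In males at 0.5 mg/kg 2 were called higher and 0 lower, and in females at 0.03 mg/kg 1 was called higher. Over all probes 0.362 and 0.017% were called in these comparisons. None was called in males at 0.03 mg/kg or in females at 0.12 or 0.5 mg/kg (0, 0.0113 and 0.0283% of probes). At 2 mg/kg the counts were 3 higher and 3 lower in males and 1 higher in females, where 5.07 and 1.4% of all probes were called. Called or not, 5 of the 8 had negative values in males at 2 mg/kg. The median change of the list was -0.42 there and +0.36 in males at 0.12 mg/kg. The group ranges of the list's mean measured ratio were 1.62 to 2.40 in control males, 1.73 to 3.18 at 0.12 mg/kg and 1.91 to 2.74 at 2 mg/kg. Of 10 clock genes, 0 were called at 0.12 mg/kg in males and 3 were called lower at 0.5 mg/kg, where 0.362% of all probes were called. In males at 2 mg/kg Dbp was higher (+0.93) and Npas2, Nfil3, Cry1 and Per2 lower, where 5.07% of all probes were called. The slide-adjusted mean ratio of the clock list was 0.55 in control males and 0.26 to 0.39 in the furan groups. In females these means were 0.52 and 0.32 to 0.40. The part of these genes in the Klf9 result was not tested.

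Thrsp, which encodes a nuclear protein of lipogenesis long used as a marker of T3 action in rat liver, was lower in males at 2 mg/kg by less than 1.5-fold. Slide-adjusted ratios were 4.44, 4.21, 4.48, 4.49 and 4.49 in control males and 4.10, 4.01, 4.11, 4.18 and 3.82 at 2 mg/kg. All treated values lay below the lowest control, as the groups did not overlap for 16.7% of all probes on this scale, whereas as measured only 3 of 5 did. The change was -0.38 ± 0.09 (1.30-fold, adjusted p = 0.002694), so it passed the adjusted p and not the fold limit, and the trend was called (-0.08 ± 0.02 per step, adjusted p = 0.00439). Within the 3 slides holding both groups the differences were -0.26, -0.39 and -0.67. Females at 2 mg/kg differed from controls by -0.14 ± 0.10 (95% interval -0.34 to 0.05, adjusted p = 0.3803), and the difference in effect between the sexes was -0.24 ± 0.13 (adjusted p = 0.3134). In males the change was -0.67 without the slide term (adjusted p = 0.1463) and -0.96 with the liver channel alone, where it was called (adjusted p = 0.01202). Over the 13 other ways of processing it ran from -0.96 to -0.19, with limma adjusted p values up to 0.4833.

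Me1, malic enzyme, which supplies NADPH for fatty acid synthesis, fell over the dose order in females by its brighter probe. The measured log2 ratios were 0.45, 0.56, 0.69, 0.23 and 0.52 in control females, -0.32, -0.02, -0.23, -0.16 and -0.19 at 0.5 mg/kg, and -0.25, -0.25, -0.10, -0.07 and -0.25 at 2 mg/kg. No treated female of these groups reached the lowest control, which was so for 3.15 and 4% of all probes. The change was -0.75 ± 0.25 at 0.5 mg/kg (adjusted p = 0.1404) and -0.75 ± 0.26 at 2 mg/kg (adjusted p = 0.07378), neither called.

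The trend in females was called for Me1 (-0.21 ± 0.06 per step, adjusted p = 0.01767). It was the 1 of 7 genes called in that test, in which 11.9% of all probes were. The dimmer Me1 probe differed, with -0.20 ± 0.25 at 2 mg/kg and a trend of -0.07 ± 0.05 (adjusted p = 0.4196), and its measured ratios of 0.55 to 1.97 at 2 mg/kg overlapped the control range of 1.64 to 2.34. With the mean of both probes the trend had an adjusted p of 0.08188. In males the brighter probe gave +0.25 ± 0.25 at 2 mg/kg (adjusted p = 0.5177), and the difference between the sexes was 0.995 ± 0.347 (adjusted p = 0.1094).

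**Figure D2:**
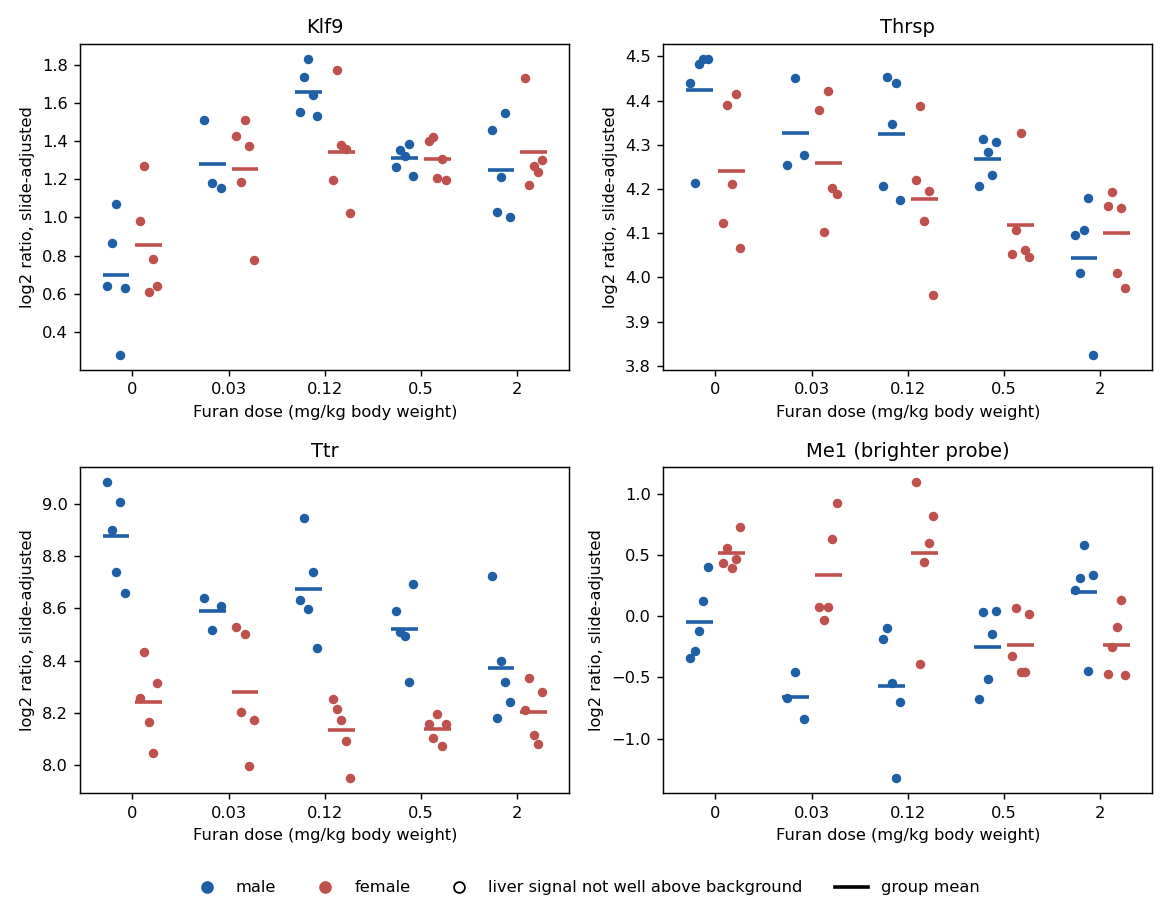
Slide-adjusted log2 ratio of liver to reference for Klf9, Thrsp, Ttr and the brighter Me1 probe in each rat against furan dose (mg/kg body weight, equally spaced). Points are rats (blue males, red females) and bars are group means; male Klf9 is highest at 0.12 mg/kg (1.53 to 1.83), male Thrsp and Ttr are lowest at 2 mg/kg, and female Me1 is below control at 0.5 and 2 mg/kg.

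Ttr, transthyretin, which carries T4 in plasma and is made by hepatocytes, was also lower in males at 2 mg/kg by less than 1.5-fold. Slide-adjusted ratios were 9.08, 8.90, 8.74, 9.01 and 8.66 in control males and 8.72, 8.18, 8.40, 8.32 and 8.24 at 2 mg/kg. All but 1 of the treated males lay below every control, and that 1 lay within the control range. The change was -0.50 ± 0.11 (1.42-fold, adjusted p = 0.001249), under the fold limit, and the trend was called (-0.11 ± 0.03 per step, adjusted p = 0.002301). In females it was -0.04 ± 0.12 (95% interval -0.28 to 0.20, adjusted p = 0.8704), and the sex difference of -0.46 ± 0.16 had an adjusted p of 0.1012. Within slides the males at 2 mg/kg were lower by -0.76, -0.60 and -0.42.

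The slide effect was large for this gene: as measured, control males ran from 7.49 to 10.0004 and males at 2 mg/kg from 7.07 to 9.40, and without the slide term the adjusted p was 0.2257. With the liver channel taken alone the change was +0.28 (adjusted p = 0.3469). In males at 2 mg/kg all 8 genes of the hepatocyte list had negative values, with a median of -0.42 against -0.02 over all probes. Of them 1 was called (Tat, -1.04), where 5.07% of all probes were. In females 5 of 8 were negative with a median of -0.02. The mean ratio of the list ran from 5.11 to 7.12 in control males and from 4.85 to 6.45 at 2 mg/kg. Cholangiocyte markers were higher, with 4 of 5 called in males at 2 mg/kg (Krt19, Epcam, Cftr and Spp1) and 1 in females (Epcam). Over all probes 5.07 and 1.4% were called in these comparisons. The mean ratio of the cholangiocyte list ran from -1.91 to -1.41 in control males and from -1.50 to -0.10 at 2 mg/kg. The part of a shift in cell types in the values of Ttr, Thrsp or Dio3 was not tested.

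Across the dose order, 4 of 7 genes were called in males (Dio3 and Klf9 rising, Thrsp and Ttr falling), where 24.4% of all probes were (12.8% rising, 11.7% falling). Of the other ways of processing, 9 of 12 kept this call for Dio3, 11 of 13 for Klf9, 7 of 13 for Thrsp and 7 of 13 for Ttr. Without the slide term the adjusted p of the trend was 0.1148 for Dio3, 0.04513 for Klf9, 0.1587 for Thrsp and 0.2721 for Ttr. The test for an effect at any dose called the same 4 genes with adjusted p values of 0.0004666 for Dio3, 0.0005985 for Klf9, 0.01388 for Ttr and 0.02603 for Thrsp, against 18.2% of all probes. In females that test called 0 of 7 (2.99% of probes), with Me1 at an adjusted p of 0.0753, Klf9 at 0.1767 and Dio3 at 0.1908. No member was called in females at 2 mg/kg, where 1.4% of probes were, although Me1 and Klf9 had an unadjusted p under 0.05, as did 24% of all probes. In limma no member was called in females at 0.03, 0.12 or 0.5 mg/kg either (0.017, 0.0113 and 0.0283% of probes), or in males at 0.03 or 0.5 mg/kg (0 and 0.362% of probes). In these female groups 2, 2 and 3 of the 7 members had an unadjusted p under 0.05, beside 6.47, 8.45 and 15.2% of all probes, and in these male groups 3 had in each case, beside 4.12 and 11.2%. The median change of the 7 genes was -0.15 in males and -0.14 in females at 2 mg/kg, beside -0.02 and 0.01 over all probes.

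In control rats Dio3 was lower and Ttr higher in males than in females. The 5 control males (-0.07 to 0.59 as measured) lay below all 5 control females (1.20 to 1.64) for Dio3, a separation that 6.3% of all probes showed, and the difference was -1.11 ± 0.13 (2.16-fold, adjusted p = 6.662e-08). Ttr overlapped as measured, with 7.49 to 10.0004 in males and 7.54 to 9.25 in females, and after slide adjustment males (8.66 to 9.08) lay above females (8.05 to 8.43), when 20.1% of all probes did not overlap. Its fitted difference was +0.63 ± 0.11 (1.55-fold, adjusted p = 4.756e-05), and it was +0.57 without control male 2 and +0.56 without control female 9, both under 1.5-fold. These were the 2 of 7 genes called between control males and females, where 6.42% of probes were. Dio1 (+0.53 ± 0.18, adjusted p = 0.03438) and Thra (+0.29 ± 0.11, adjusted p = 0.04808) were higher in males by less than 1.5-fold, and Me1 was at -0.56 ± 0.24 (adjusted p = 0.09324).

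The male values of the 2 genes called between the control sexes are set beside those at 2 mg/kg, and both comparisons use the same control males. Dio3 in males had slide-adjusted means of 0.17 in controls and 0.85 ± 0.23 (SD, n = 5) at 2 mg/kg, beside 1.28 ± 0.24 in control females and 1.11 ± 0.20 in females at 2 mg/kg. Ttr in males had means of 8.88 and 8.37 ± 0.21, beside 8.24 ± 0.15 and 8.20 ± 0.11. At 2 mg/kg the ranges of the sexes overlapped for both genes.

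**Figure D3:**
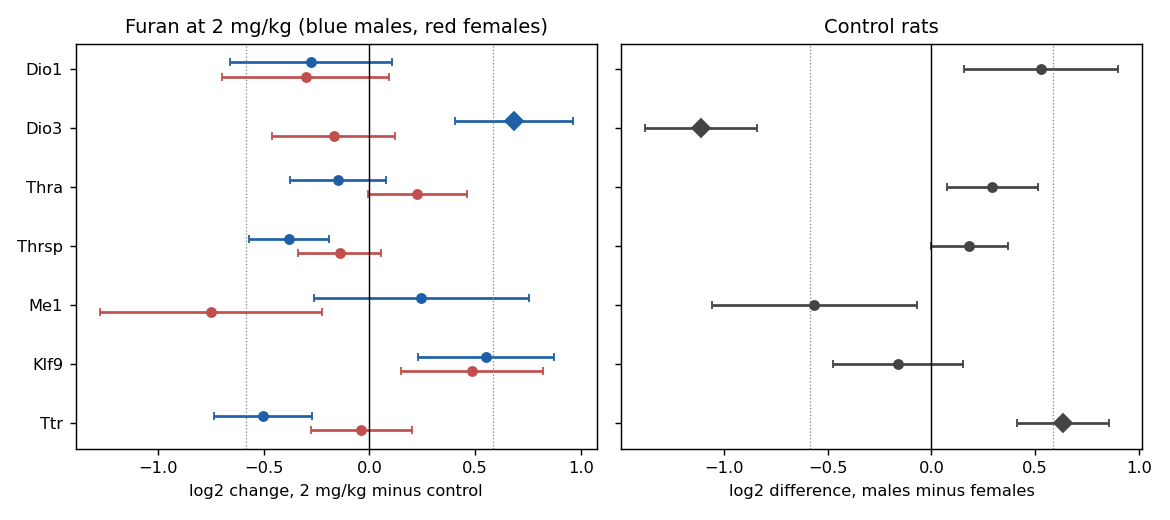
Fitted log2 differences with 95% intervals for the 7 tested genes, at 2 mg/kg against control of the same sex on the left (blue males, red females) and between control males and control females on the right. Diamonds mark called genes, circles the others, and dotted lines 1.5-fold; Dio3 in males (+0.68), and Dio3 (-1.11) and Ttr (+0.63) between the control sexes, are the called values.

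The wider pathway was described with 5 lists of 47 genes for hormone transport, binding, conjugation and metabolism, receptor partners and other hepatic targets, of which 35 were tested. In males at 2 mg/kg 2 were called higher and 6 lower, where 5.07% of all probes were called, with a median of -0.32 beside -0.02 over all probes. In females 1 was called higher and 0 lower, where 1.4% of all probes were called, with a median of -0.06.

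Among 9 transporters, 3 basolateral uptake carriers were lower in males: Slco1a1 by -0.68 ± 0.15, Slco1b2 by -0.79 ± 0.18 and the bile acid carrier Slc10a1 by -0.69 ± 0.18. Abcb1b, a P-glycoprotein efflux pump, was higher in both sexes by its brighter probe, by 1.68 ± 0.22 in males and 0.90 ± 0.22 in females. It had 2 tested probes, and the values of the dimmer one are not given. The brightest tested probe likewise stands for every other list gene with several probes.

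Of 6 tested conjugation and metabolism genes, the glucuronosyltransferase Ugt2b7 was higher (+1.46 ± 0.19) and the sulfotransferase Sult1c3 lower (-1.03 ± 0.17) in males. In females Sult1c3 had the largest value of that list, -0.38 ± 0.17 (adjusted p = 0.1699). The probe of Dio2, the other activating deiodinase, did not pass the filter. Of the 2 binding proteins tested, Alb in males (-0.51 ± 0.10, adjusted p = 0.0004168) and Crym in females (+0.33 ± 0.22, adjusted p = 0.3818) had the largest values, and neither was called. None of the 6 receptor partners was called in limma at 2 mg/kg, the largest values being Rxrg in males (-0.34 ± 0.17, adjusted p = 0.1597) and Rxrb in females (+0.35 ± 0.09, adjusted p = 0.01894), both retinoid X receptors and both under 1.5-fold.

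Of 12 other targets, 11 had negative values in males, and Fasn, fatty acid synthase (-1.67 ± 0.33), and Acly, ATP citrate lyase (-1.04 ± 0.31), were called lower. None of these 12 was called in females, in which Fasn was at -1.01 ± 0.34 (adjusted p = 0.06734) and Gpd2, mitochondrial glycerol-3-phosphate dehydrogenase and a long-known T3 target, at -0.54 ± 0.10 (adjusted p = 0.002255), just under 1.5-fold.

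**Figure D4:**
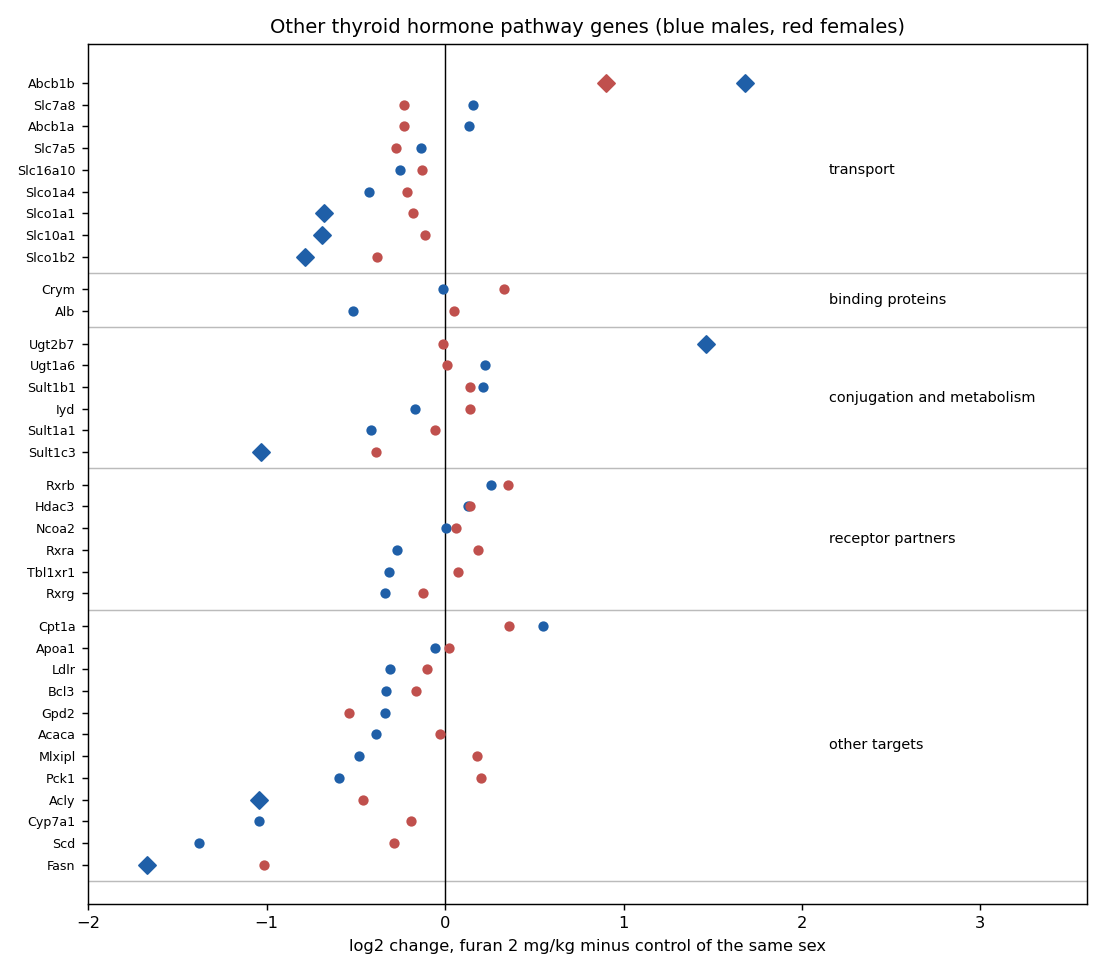
Fitted log2 change at 2 mg/kg against control of the same sex for the 35 tested pathway genes, grouped by role and ordered by the male value (blue males, red females). Diamonds mark called genes; Abcb1b (1.68 and 0.90) is called in both sexes, and in males Ugt2b7 is called higher and Slco1a1, Slco1b2, Slc10a1, Sult1c3, Fasn and Acly lower.

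The genes most like 3 of the members over the 48 slide-adjusted arrays were found by Pearson's r among all named tested genes, as a description that also reflects sex and dose. Dio1 ran closest to Nucb2 (0.88), Nt5e (0.84) and Cyp2a2 (0.83), Thrsp to Aadat (0.87), F12 (0.86) and Pon1 (0.855), and Me1 to Pkp2 (0.71), Abcg2 (0.695) and Ankrd40 (0.68). Among the members themselves, 21 pairs were compared over the 48 arrays after the group means and slides were removed, with permutation tests (2-sided, 100000 resamples, Benjamini-Hochberg over the pairs) that treat these residuals as independent. Ttr and Dio1 ran oppositely (r = -0.46, adjusted p = 0.01438; rho = -0.48, adjusted p = 0.01407), as did Me1 and Klf9 (r = -0.45, adjusted p = 0.01438; rho = -0.40, adjusted p = 0.03596). Without the 2 arrays farthest from the median of the first gene, r was -0.43 and -0.40. Dio3 was not correlated with another member beyond r = 0.14, and its adjusted p values were at least 0.5582.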

How the data were processed

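Liver RNA of 49 rats was measured on 2-colour Agilent arrays, 1 rat per array, and replicates are separate animals. Per the file headers, the authors acquired the data from the scanned arrays with Agilent Feature Extraction 10.7.3.1. The deposited files hold median spot intensity and local background intensity for each channel, and a log10 ratio made by that software. The deposited series table holds log2 ratios that the authors normalised in R, by steps not given in the sources used here. Raw intensities cover 58717 transcript spots per array, and the number of arrays limits the precision.

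Median intensities were background-corrected (normexp, offset 50) and loess-normalised within arrays in limma 3.58.1 (R 4.3.3), and spots of a probe averaged after outlier flags were removed. Arrays with under 20% of liver spots above background were left out (1 array). A probe was tested when above background on at least 4 arrays of a group. One limma model held 10 group means and slide as a fixed block, with Benjamini-Hochberg adjustment over 17661 probes. It recovered known changes in simulated data, planted only in males at 2 mg/kg. They were larger than any member's change at a dose, so recovery at the smaller sizes was not tested. Trends used equal steps between doses. Columns of the series table matched 46 scanner files at r of at least 0.99, always in the same group but rarely as the same animal (7 of 46 matches). The table was therefore fitted without slide, and with all of its 49 columns. Another 3 files, the dim array among them, matched no column. Male 83 at 2 mg/kg was closest to a column of males at 0.03 mg/kg (r = 0.969). Female 62 at 0.5 mg/kg was closest to a column of females at 2 mg/kg (r = 0.981). Groups here follow the sample titles. Members and gene lists were chosen with earlier results of these data known: the 8 genes, pathway genes called at 2 mg/kg or with the largest change of a list under 2 calls, and the 3 genes most like Dio1, Thrsp and Me1. Some genes of the pathway lists are not reported here and were left out of the lists' counts and medians, though not of the model. Promoters came from RefSeq (GRCr8), where all 8 genes matched. Control males and females share animal numbers 2 and 4, which nothing says pair them. Alternatives were other normalisations, filters, block terms and leaving out each array.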

Additional observations from a re-analysis of the deposited data

Results flagged for a closer look

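The furan effect on Dio3 at 2 mg/kg differed between males and females by a test of the difference itself (0.85 on the log2 scale, male minus female, adjusted p = 0.02145 in limma). Of 63 sets of measured ratios (7 genes in 9 groups of 5 rats), 2 held a rat far from the others, and chance alone marks about 5% of such sets. Klf9 in the female numbered 44 at 0.12 mg/kg was 1.75, the next rat 1.25 and the lowest 1.11, so that the gap was 0.782 of the range. Dio1 in the control male numbered 6 was 4.09, the next rat 5.35 and the highest 5.83, a gap of 0.723 of the range. That array lay on slide 8, and its slide-adjusted Dio1 value of 4.99 fell inside the range of the other control males (4.74 to 5.06).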

How the results depend on the processing

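Dim probes (Dio3, Thra) and slide differences limit these results. Slides 5 and 6 hold treated arrays only, so a slide effect there is estimated from the treated groups alone. Without the slide term the counts of called members were 0 in males at 2 mg/kg, 1 in the male trend, 0 for the difference between sexes, 1 between control sexes and 1 for any dose in males, and with all 49 arrays and no slide term they were 0, 1, 0, 1 and 1. With slide as a random block the counts were 1 in males at 0.5 mg/kg, 1 in females at 2 mg/kg, 2 in the female trend and 1 for any dose in females. Array weights gave 1 in females at 0.5 and 1 at 2 mg/kg, 3 in the female trend and 2 for any dose in females. Median centring gave 1 in males at 0.5 mg/kg and 2 in the male trend. There the gene called in males at 2 mg/kg was Klf9 (0.76, adjusted p = 0.002645) and not Dio3 (0.47), and Ttr was lost between control sexes (0.33, adjusted p = 0.05959). All 49 arrays gave 2 in the male trend and 0 for the difference between sexes. The liver channel alone gave 2 in the male trend, 0 for the difference between sexes, 1 between control sexes and 2 for any dose in males. There Thrsp (-0.96) and not Dio3 (0.39) was called in males at 2 mg/kg, and Dio1 (0.75, adjusted p = 0.001372) and not Dio3 (-0.55) or Ttr between control sexes. Scanner log ratios gave 2 in males at 2 mg/kg and 0 for the difference between sexes. Only probes above background on at least 40 arrays gave 0, 0 and 1 in males at 2 mg/kg, for the difference between sexes and between control sexes, since Dio3 was not tested. The mean over probes of a gene gave 0 in the female trend. Both further settings were chosen after seeing the data. The series table was fitted without slide and with all 49 columns, the one titled as the dim array among them. It gave 0 in the male trend, 0 for the difference between sexes, 1 between control sexes and 1 for any dose in males. There Klf9 (0.61, adjusted p = 0.02285) and not Dio3 was called in males at 2 mg/kg, and Me1 was lost in the female trend (adjusted p = 0.0787). Leaving out slides 5 and 6 gave 2 in males at 2 mg/kg. The causes were not tested.

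Among called values the sign turned for Thrsp in the male trend with all 49 arrays (0.0028), and for Ttr with the liver channel alone in the male trend (0.0597) and between control sexes (-0.1753). Ttr in males at 2 mg/kg, past the adjusted p only, turned there too (0.2844). Values that were not called also turned, with 103 sign changes in 917 fits of 70 values and 0 calls among them, such as the sex difference in effect of Thrsp (up to 0.31) and Ttr (up to 0.19), and the females at 2 mg/kg for Dio1 (up to 0.13) and Thrsp (up to 0.29). Leaving out each rat in turn gave 0 to 2 called members in males at 2 mg/kg, 1 to 1 at 0.12, 0 to 1 at 0.5 and 0 to 0 at 0.03 mg/kg, 3 to 5 in the male trend and 2 to 5 for any dose in males. In females it gave 0 to 1 at 2 mg/kg, 0 to 0 at each lower dose, 1 to 2 in the trend and 0 to 1 for any dose. It gave 0 to 2 for the difference between sexes and 1 to 3 between control sexes. Klf9 in males at 0.12 mg/kg was called under every alternative run, leave-outs included. With animal number as a replicate block, which 2 numbers shared by control males and females allow, 2 members were called between control sexes as without the pairing, and Thra had an adjusted p of 0.0554. Over all probes, calls in the main setting and their range over the alternatives other than leaving out a rat were 895 (392 to 1464) in males and 248 (116 to 509) in females at 2 mg/kg, 192 (2 to 315) for the difference between sexes, 1134 (547 to 1587) between control sexes, 3221 (242 to 3522) for any dose in males and 528 (16 to 2729) in females. Leaving out each rat gave 555 to 1332, 100 to 348, 40 to 565 and 1062 to 1187 for the first 4 of these. Under median centring the median of all probes was 0.15 for the difference between sexes and -0.15 between control sexes, against -0.0024 and 0.02 in the main setting. The series table with slide as a block was not run, because its columns rarely match the same animal's array.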

Other observations

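Markers of other liver cells at 2 mg/kg, on the scale of fitted log2 changes, were as follows. At this dose 5.07% of all probes were called in males and 1.4% in females. Among 7 stellate cell genes 2 were called higher in males and 0 in females, with medians of 0.35 and 0.10. Of 7 macrophage genes 0 were called in limma in either sex, with medians of -0.28 and -0.21. Of 4 erythroid genes 2 were called lower in males and 0 in females, with medians of -0.68 and -0.39.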
